A study of Mus musculus with 22 samples.

Results

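The 10 genes described here encode the enzymes that make and remodel phosphatidylcholine and phosphatidylethanolamine, the main phospholipids of liver membranes and lipoproteins. They were taken by symbol from the deposited count tables: Chka, Chkb, Etnk1, Etnk2, Pcyt1a, Pcyt2, Chpt1, Cept1, Pemt and Lpcat3, which are 10 of the 45777 genes listed. All 10 were present in both tables and passed the filter on low counts, with 643 to 32256 reads per gene and library. They were measured in 22 liver RNA libraries from male wild-type C57BL/6J mice, one cohort of 11 for each of 2 diets. In the HFD cohort the groups were normal diet with vehicle (n = 3, labelled Normal), high-fat diet with vehicle (n = 4, labelled MASLD, metabolic dysfunction-associated steatotic liver disease) and high-fat diet with DTMB (n = 4). In the MCD cohort they were normal diet with vehicle (n = 4, Normal), a diet lacking methionine and choline with vehicle (n = 4, labelled MASH, the steatohepatitis stage) and that diet with DTMB (n = 3). DTMB, known here by its code name, was dosed orally at 10 mg/kg each day. All groups share strain, sex and genotype, and every group without DTMB received vehicle. The labels give neither the time on diet nor the age of the mice, and call the replicates biological.

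Hepatocytes make phosphatidylcholine by a pair of routes. In the first, the CDP-choline route of the Kennedy pathway, choline kinase phosphorylates choline, CTP:phosphocholine cytidyltransferase activates it and a phosphotransferase joins it to diacylglycerol; a parallel set of enzymes does the same with ethanolamine. In the second, which is prominent in liver, Pemt methylates phosphatidylethanolamine with methyl groups from S-adenosylmethionine. Choline and methionine feed these routes, and a diet without both is a standard way to bring about steatohepatitis in mice.

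Each position is given in GRCm38.p6 (mm10), from the RefSeq table, and spans the whole gene. The choline kinases are Chka at chr19:3851585-3894369 and Chkb at chr15:89426349-89429927. The ethanolamine kinases are Etnk1 at chr6:143166866-143208546 and Etnk2 at chr1:133363463-133380318. The cytidyltransferases are Pcyt1a, which acts on phosphocholine, at chr16:32430921-32475065 and Pcyt2, which acts on phosphoethanolamine, at chr11:120610062-120617947. The phosphotransferases are Chpt1, which makes phosphatidylcholine, at chr10:88469513-88503970 and Cept1, which makes both phospholipids, at chr3:106502260-106547802. Pemt, the methyltransferase, lies at chr11:59970614-60046561. Lpcat3, the acyltransferase that puts polyunsaturated chains into lysophospholipids, lies at chr6:124663094-124704716. Some share bases with a neighbour in the same RefSeq table, by whole-gene span. Chkb lies within the long noncoding RNA gene Gm44502, Cept1 overlaps Dennd2d by 771 bases and Dram2 by 5, and Lpcat3 overlaps Emg1 by 347. Dennd2d averaged 8.02 CPM, Dram2 82.1 CPM and Emg1 29.0 CPM over all libraries. Whether counting used strand is not stated, so reads in shared bases could belong to either gene.

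Promoter sequences of 300 bases were matched in RefSeq (GRCm38.p6) for 9 of the 10 genes. Those of Lpcat3, which rose on the MCD diet, of Chka, which fell most on the high-fat diet, and of Pcyt1a, which held the sterol motif, are shown. Each runs 5′ to 3′ on the gene's strand, which is the plus strand for all of them. Capitals mark the GC box GGGCGG, the CCAAT box and the sterol response element TCACNCCAC, searched on both strands.
Lpcat3, chr6:124662854-124663153: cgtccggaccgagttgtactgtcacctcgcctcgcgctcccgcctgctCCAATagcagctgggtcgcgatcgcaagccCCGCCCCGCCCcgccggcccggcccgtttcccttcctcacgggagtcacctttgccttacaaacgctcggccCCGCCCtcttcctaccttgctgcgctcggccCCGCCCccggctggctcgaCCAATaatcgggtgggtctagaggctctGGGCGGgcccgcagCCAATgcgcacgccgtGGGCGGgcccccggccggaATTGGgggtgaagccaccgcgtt
Chka, chr19:3851523-3851822: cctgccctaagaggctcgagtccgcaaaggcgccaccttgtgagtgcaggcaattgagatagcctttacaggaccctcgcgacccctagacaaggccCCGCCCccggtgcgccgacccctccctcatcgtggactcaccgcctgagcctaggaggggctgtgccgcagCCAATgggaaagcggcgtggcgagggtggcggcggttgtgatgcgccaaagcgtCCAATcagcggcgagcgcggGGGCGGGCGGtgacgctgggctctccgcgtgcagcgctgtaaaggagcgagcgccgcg
Pcyt1a, chr16:32430671-32430970: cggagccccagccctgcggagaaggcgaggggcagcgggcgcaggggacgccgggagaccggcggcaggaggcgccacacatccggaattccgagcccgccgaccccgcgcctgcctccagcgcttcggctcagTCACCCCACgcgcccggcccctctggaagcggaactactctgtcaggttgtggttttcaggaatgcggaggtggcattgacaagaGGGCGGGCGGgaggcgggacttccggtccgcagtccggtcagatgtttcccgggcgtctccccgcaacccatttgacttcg
The 9 genes had 14 promoter entries, since some have several starts; the first is shown. A GC box was found in 10 of the 14 entries (8 of the 9 genes) and in 35.7% of all 32851 promoters of this length. A CCAAT box was found in 6 of the 14 entries (6 genes), near the 37.4% of all promoters, and that of Cept1 was not in its first entry. The sterol response element was found in 2 entries of Pcyt1a, which overlap and hold the same site, and in 1.24% of all promoters. Overlapping entries of a gene can likewise count the same GC box more than once. The E-box CACGTG (7.15% of all), the direct repeat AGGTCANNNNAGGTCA (0.0152%) and the direct repeat AGGTCANAGGTCA (0.0396%) were found in none of the 14. A match is a description of the letters in this window and does not show that a factor binds there.

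Each library held between 50.1 and 66.7 M counts. A list of 8 hepatocyte genes summed to between 73188 and 118399 CPM in every library, so the defining markers of liver were present. In 6 libraries a list of 15 pancreatic acinar genes summed to over 100 CPM: normal-diet replicates 1 (1475 CPM) and 3 (1333), HFD vehicle replicates 1 (508) and 4 (3490) and HFD with DTMB replicate 3 (1920) of the HFD cohort, and normal-diet replicate 4 (409) of the MCD cohort. In the other libraries it was at most 22.04 CPM. An alternative fit below left out the 6 acinar libraries. In the HFD cohort it kept normal-diet replicate 2, vehicle replicates 2 and 3 and DTMB replicates 1, 2 and 4. With 1 normal-diet library there, only the size of a change from normal diet or of a diet difference is given from that fit. Markers of other cells moved with the MCD diet: the summed monocyte and lipid-associated macrophage list was 79.1 to 111 CPM on normal diet, 382 to 1059 CPM on MCD and 176 to 405 CPM on MCD with DTMB, and the stellate cell list was 110 to 247, 430 to 701 and 346 to 366 CPM. The endothelial list was 103 to 128 CPM on normal diet and 154 to 208 CPM on MCD with vehicle. The cholangiocyte list, which shares the gene Spp1 with the macrophage list, was 30.1 to 45.4 and 55.2 to 230 CPM. The Kupffer cell and lymphocyte lists overlapped between these groups. The part of all these lists in the results below was not tested. In whole-liver RNA, fewer cells of a type and less RNA per cell cannot be told apart.

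Values below are counts per 1000000 counts of the library (CPM), with the library total scaled by TMM within the cohort, unless stated. Sums of marker lists, above and below, are in CPM of the library total without TMM. A call is an adjusted p under 0.05 in edgeR's quasi-likelihood test with Benjamini-Hochberg adjustment over all genes tested; fold changes are on the log2 scale with their standard error (SE). The scaling bears directly on the MCD cohort. Mup genes, which encode abundant urinary proteins secreted by liver, took 4.53 to 19.5% of counts on normal diet and 0.298 to 0.647% on MCD with vehicle. TMM factors were 0.785 to 0.894 on normal diet and 1.03 to 1.21 on MCD with vehicle. The part of the Mup genes in these factors was not tested. Without these factors, on library size alone, the median log2 change of all genes on MCD moved from 0.0039 to 0.47, and on HFD from 0.015 to 0.14. A change on the TMM scale is therefore relative to the typical gene of the same liver, and the direction of a small change depends on this choice.

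**Figure D1:**
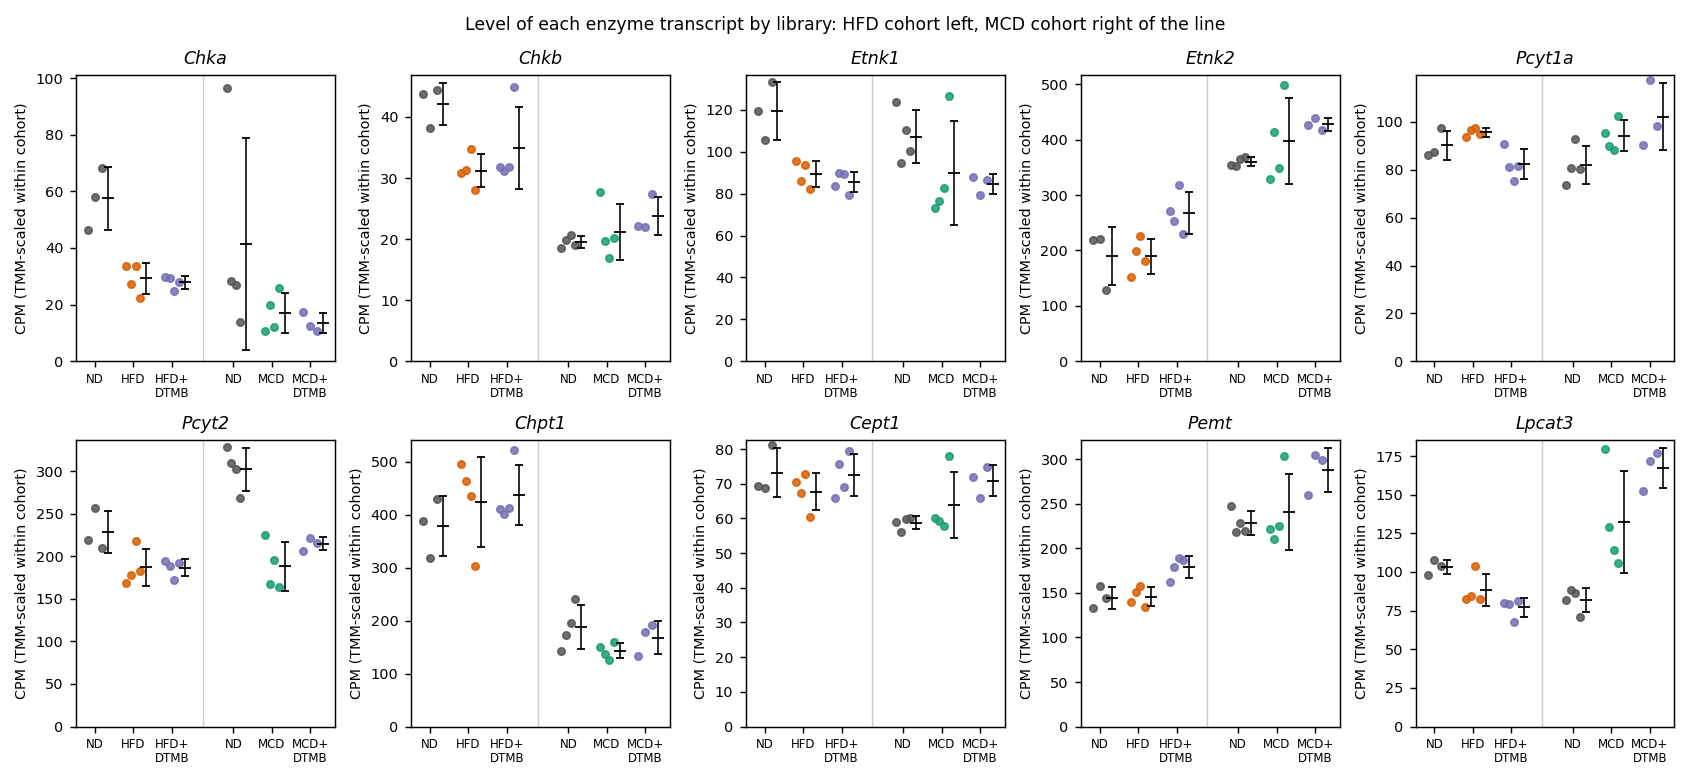
Level of each enzyme transcript in every library, in CPM scaled by TMM within its cohort, on axes starting at 0. Points are libraries, bars are the mean ± SD, ND is normal diet, and the line parts the HFD cohort (left) from the MCD cohort (right), whose levels are not on one scale. Lpcat3 lay higher and Pcyt2 lower in every MCD library than in every normal-diet library of that cohort, and Chka lay lower in every HFD library.

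On normal diet in the MCD cohort the enzymes split, per length, into an abundant and a scarce set. The length is the union of all exons annotated for a gene, which can exceed the transcript present in liver, so the ranking depends on it. Per kilobase of exon, in the MCD cohort, Pemt was highest at 199.5 ± 11.98 CPM per kb (SD, n = 4), followed by Pcyt2 at 160.7 ± 13.4 and Etnk2 at 141.9 ± 3.23. Each of the other 7 lay far below these on the same per-length scale, from Lpcat3 at 35.9 ± 3.31 through Chpt1 at 23.7 ± 5.18, Cept1 at 19.2 ± 0.604, Pcyt1a at 16.4 ± 1.58, Chka at 15.9 ± 14.3 and Etnk1 at 12.6 ± 1.49 to Chkb at 11.4 ± 0.547. Pemt, Pcyt2, Etnk2 and Lpcat3 were each apart from the next gene by more than their SDs. Chpt1 and Cept1 did not differ beyond their spread, nor did the neighbours among Pcyt1a, Chka, Etnk1 and Chkb. In the HFD cohort's normal-diet livers (n = 3) the leading genes were the same, with Pemt at 126.5 ± 10.8, Pcyt2 at 121.5 ± 13.4 and Etnk2 at 74.6 ± 20.6 CPM per kb, and Pemt and Pcyt2 did not differ beyond their spread. Etnk1 was lowest there, at 14.1 ± 1.63 CPM per kb. On both cohorts' normal diets the ethanolamine cytidyltransferase Pcyt2 thus stood well above the choline cytidyltransferase Pcyt1a per kb of exon.

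The MCD diet, which withdraws choline, left most of these transcripts within the typical change of the liver and moved Lpcat3 and Pcyt2 in opposite directions. Of the 10 genes, 1 rose and 1 fell, where 41.3% of the 16037 genes tested were called, 20.3% higher and 21.0% lower. The median change of the 10 was 0.10 on the log2 scale, against 0.0039 for all genes.

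Lpcat3 was 81.7, 88.0, 86.2 and 71.2 CPM in the normal-diet livers and 179.3, 129.2, 114.5 and 105.9 CPM in the MCD livers. The groups did not overlap, and replicate 1 stood highest on MCD. The log2 fold change was 0.69 (SE 0.15, edgeR adjusted p = 0.00366). It was called in all 11 fits that left out 1 library (0.51 to 0.81) and was 1.16 on library size alone, higher on both scales.

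Pcyt2, the enzyme that activates phosphoethanolamine, was 328.4, 310.0, 302.8 and 268.0 CPM on normal diet and 225.3, 167.9, 196.1 and 163.5 CPM on MCD. Every MCD library lay below every normal-diet library. The log2 fold change was -0.68 (SE 0.12, edgeR adjusted p = 7.53e-04), called in all 11 leave-one-out fits. On library size alone it was -0.22 (edgeR adjusted p = 0.194): the direction held and the call did not, so the fall is one relative to the other genes.

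The kinases did not pass the test on MCD. Chka, which phosphorylates choline, was 96.6, 28.3, 27.0 and 13.9 CPM on normal diet and 10.53, 19.7, 12.1 and 25.9 CPM on MCD. One normal-diet library, replicate 1, stood far above the rest, and the groups overlapped. The log2 fold change was -1.28 (SE 0.50, edgeR adjusted p = 0.0589), and -1.57 (adjusted p = 0.0190) without normal-diet replicate 4, the library with acinar transcripts. Without replicate 1 it was -0.44 (edgeR adjusted p = 0.314). Chkb was 18.6 to 20.7 CPM on normal diet and 17.0 to 27.8 CPM on MCD (log2 fold change 0.12, SE 0.14). Etnk1 was 94.7 to 123.6 CPM on normal diet and 73.0, 76.5, 82.9 and 126.5 CPM on MCD. Its change was -0.26 (SE 0.16, edgeR adjusted p = 0.224), and -0.45 (adjusted p = 0.00735) when MCD replicate 4, the high library, was left out. Etnk2 was 353.4 to 369.3 CPM on normal diet and 328.6 to 499.2 CPM on MCD, a change of 0.14 (SE 0.13).

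The choline cytidyltransferase Pcyt1a was 73.8, 80.9, 92.8 and 80.4 CPM on normal diet and 95.6, 90.1, 88.3 and 102.7 CPM on MCD. The groups overlapped at 1 normal-diet library, and the change of 0.20 (SE 0.11) had an edgeR adjusted p of 0.153. Chpt1 was 143.4 to 241.0 CPM on normal diet and 126.6 to 160.0 CPM on MCD. Its change of -0.39 (SE 0.16, edgeR adjusted p = 0.0753) was -0.50 (adjusted p = 0.0269) without normal-diet replicate 1. Cept1 changed by 0.12 (SE 0.10) from 56.1 to 60.1 CPM on normal diet to 57.7 to 78.1 CPM on MCD. Pemt, the methylation route's enzyme, was 247.9, 218.7, 228.2 and 219.0 CPM on normal diet and 221.5, 211.1, 225.1 and 303.9 CPM on MCD. Apart from MCD replicate 4 the Pemt values of the diets lay in one range, and the change was 0.07 (SE 0.12, edgeR adjusted p = 0.661). MCD replicate 4 was also the highest MCD vehicle library for Chka, Chpt1, Cept1, Etnk1, Etnk2 and Pcyt1a.

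On library size alone the MCD diet called 6 of the 10 genes higher and 0 lower, where 47.9% of all genes were called higher and 7.30% lower (Pemt 0.52, Chkb 0.58, Pcyt1a 0.66, Cept1 0.57, Etnk2 0.60 and Lpcat3 1.16 on the log2 scale), beside the median of 0.47 for all genes. Lpcat3 is the one gene called in the same direction on both scales. Chpt1 and Etnk1 changed sign between the scales and were called on neither.

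**Figure D2:**
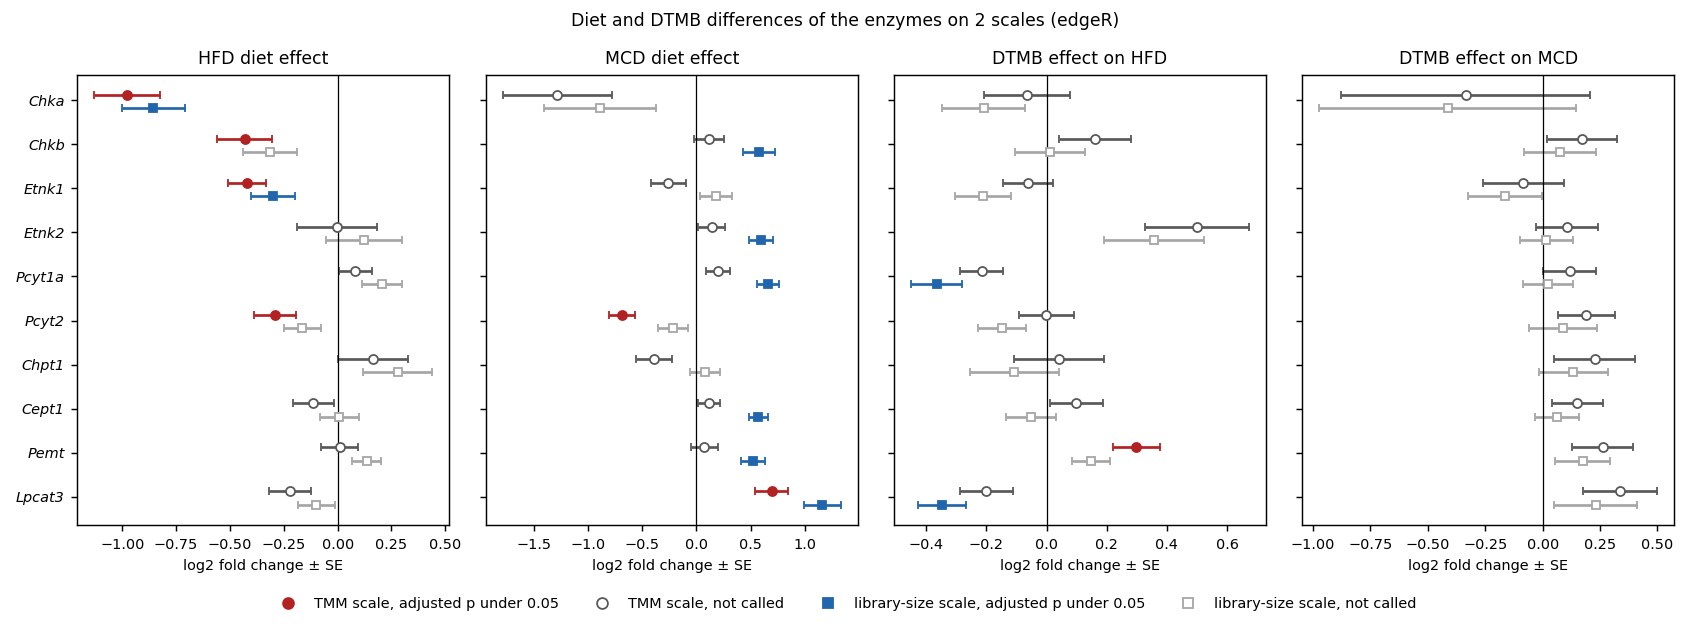
Log2 fold changes (points) with their SE (bars) of the 10 enzymes in 4 comparisons, on the TMM scale (circles) and on library size alone (squares); filled marks have an adjusted p under 0.05. For the MCD diet the squares lie to the right of the circles for all 10 genes, and Lpcat3 is filled on both scales.

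On the high-fat diet Chka, Chkb, Etnk1 and Pcyt2 fell. All 4 were lower on both scales, and the calls of Chkb and Pcyt2 were lost on library size alone. Without the acinar libraries the normal-diet group kept replicate 2 alone, so only sizes of change are given from that fit. In the main fit 0 of the 10 genes rose and 4 fell, where 27.8% of 15597 genes were called, 15.2% higher and 12.6% lower. The median change of the 10 was -0.17, against 0.015 for all genes. Some lists of other cells were also higher on HFD than on normal diet without overlap. The monocyte and lipid-associated macrophage list was 72.7 to 78.4 CPM on normal diet and 101 to 175 CPM on HFD. The cholangiocyte list was 28.5 to 41.9 and 51.0 to 81.7 CPM. It shares the gene Spp1 with the monocyte and lipid-associated macrophage list, so the rises of these lists are not separate. The Kupffer cell, stellate, endothelial and lymphocyte lists overlapped between these groups. The immediate-early list, which is not one of a cell type, was 59.0 to 105 and 119 to 174 CPM. These sums are without TMM, whose factors were 0.928 to 1.00 on normal diet and 1.00 to 1.12 on HFD with vehicle. Whether the groups overlap on the TMM scale was not examined. The part of these lists in the falls was not tested.

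Chka was 46.2, 58.0 and 68.4 CPM on normal diet and 33.6, 27.4, 33.7 and 22.2 CPM on HFD. The groups did not overlap and the mean fell from 57.5 to 29.2 CPM. The log2 fold change was -0.98 (SE 0.15, edgeR adjusted p = 8.12e-04), called in all 11 leave-one-out fits and on library size alone (-0.86). Without the acinar libraries it was -0.94. In 1 fit of all 22 libraries, where the wide spread of Chka in the MCD cohort enters, it was -0.99 with an adjusted p of 0.109.

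Etnk1 was 119.7, 105.7 and 133.4 CPM on normal diet and 95.5, 86.1, 93.5 and 82.4 CPM on HFD, with no overlap. Its change was -0.42 (SE 0.090, edgeR adjusted p = 0.00490), called in all 11 leave-one-out fits and on library size alone. Without the acinar libraries the change of Etnk1 was -0.25. Chkb was 43.8, 38.2 and 44.3 CPM on normal diet and 30.8, 31.3, 34.8 and 28.01 CPM on HFD, again with no overlap. Its change was -0.43 (SE 0.13, edgeR adjusted p = 0.0250). That call was lost without normal-diet replicate 1 or 3 or HFD replicate 1, 2 or 4 (edgeR adjusted p 0.0515 to 0.0782). Without the acinar libraries the change of Chkb was -0.22. Etnk2, the other ethanolamine kinase, did not pass the test on HFD (log2 fold change -0.0028, SE 0.19), with 129.4 to 220.2 CPM on normal diet and 151.4 to 226.1 CPM on HFD.

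Pcyt2 was 219.3, 257.1 and 209.4 CPM on normal diet and 168.1, 178.3, 217.7 and 183.3 CPM on HFD. HFD replicate 3 lay within the normal-diet range, and the change of -0.29 (SE 0.099) had an edgeR adjusted p of 0.0451. The call was lost in 7 of the 11 leave-one-out fits, without normal-diet replicate 1 or 2, HFD replicate 1, 2 or 4, or HFD with DTMB replicate 1 or 2 (adjusted p 0.0518 to 0.199). Pcyt1a (0.08, SE 0.076), Chpt1 (0.16, SE 0.16), Cept1 (-0.11, SE 0.095) and Pemt (0.01, SE 0.086) did not pass the test on HFD. Lpcat3, which rose on MCD, was 98.1, 107.7 and 103.8 CPM on normal diet and 82.8, 84.8, 103.9 and 82.6 CPM on HFD, a change of -0.22 (SE 0.096, edgeR adjusted p = 0.106) that was -0.31 (adjusted p = 0.0195) without HFD replicate 3, the high library.

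The difference between the diets was tested in a fit of all 22 libraries, as the MCD change less the HFD change. Of the 10 genes, 2 differed, Lpcat3 and Chkb, where 35.3% of 16541 genes were called, 16.8% higher and 18.5% lower. On library size alone 6 of the 10 differed, all higher (Pemt, Chkb, Pcyt1a, Cept1, Etnk1 and Lpcat3), where 29.6% of all genes were called higher and 10.7% lower. For Lpcat3 the MCD change exceeded the HFD change by 0.95 (SE 0.19, edgeR adjusted p = 5.31e-04). That difference was called in all 22 leave-one-out fits and on library size alone, and was 0.86 without the acinar libraries. For Chkb the difference was 0.58 (SE 0.20, edgeR adjusted p = 0.0317). Its call was lost without normal-diet replicate 1 or 3 or HFD vehicle replicate 4 of the HFD cohort. The same held without normal-diet replicate 1 or 4 or MCD vehicle replicate 1 of the MCD cohort (edgeR adjusted p over all of these 0.0513 to 0.0729). Without the acinar libraries the difference was 0.35. For Chka the falls on the diets were not shown to differ (-0.27, SE 0.58, edgeR adjusted p = 0.753), and without the high normal-diet library of the MCD cohort that difference changed sign to 0.57. Pcyt2 differed by -0.36 (SE 0.15, edgeR adjusted p = 0.0620). That difference passed the threshold in 4 of 22 leave-one-out fits, without HFD vehicle replicate 1 or normal-diet replicate 2 of the HFD cohort, or MCD vehicle replicate 1 or normal-diet replicate 4 of the MCD cohort (adjusted p 0.0116 to 0.0471). Chpt1 differed by -0.53 (SE 0.25, edgeR adjusted p = 0.107), and passed without HFD vehicle replicate 4 (-0.66, adjusted p = 0.0343) or normal-diet replicate 1 of the MCD cohort (-0.64, adjusted p = 0.0472). The cohort and the diet cannot be told apart in this difference beyond what each cohort's own normal-diet group removes.

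DTMB on the high-fat diet moved 1 of the 10 genes, Pemt, which rose, where 12.7% of 15597 genes were called, 6.64% higher and 6.04% lower. That background was 1978 genes. It was 483 to 957 genes without vehicle replicate 1, 2 or 4 or DTMB replicate 2, 3 or 4, lowest without vehicle replicate 1, and at most 2562 in the other fits that left out 1 library of the cohort. The edgeR fit called 0 genes without the acinar libraries, with 2182 at an unadjusted p under 0.05. Pemt was 140.1, 151.1, 157.6 and 134.0 CPM with vehicle and 161.9, 178.8, 189.5 and 186.7 CPM with DTMB. Every DTMB library lay above every vehicle library, and the normal-diet livers held 132.7, 157.3 and 144.4 CPM. The log2 fold change was 0.30 (SE 0.079, edgeR adjusted p = 0.0330). The call rested on most of the libraries together: it was lost without vehicle replicate 1, 2 or 4 or DTMB replicate 2, 3 or 4 (0.26 to 0.32, adjusted p 0.0603 to 0.0988). It was also lost on library size alone (0.15, edgeR adjusted p = 0.114) and without the acinar libraries (0.19, adjusted p = 0.430), higher in each.

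Etnk2 was 151.4, 198.8, 226.1 and 180.8 CPM with vehicle and 271.2, 252.7, 318.0 and 229.3 CPM with DTMB on HFD. The groups did not overlap, yet the change of 0.50 (SE 0.17) had an edgeR adjusted p of 0.0749. It passed without vehicle replicate 3 (0.60, adjusted p = 0.0467) or normal-diet replicate 3 (0.50, adjusted p = 0.0320), and in DESeq2 (0.50, adjusted p = 0.0173). Pcyt1a went the other way: 93.6, 96.7, 97.4 and 94.8 CPM with vehicle and 90.8, 81.3, 75.5 and 81.8 CPM with DTMB, again without overlap. Its change was -0.22 (SE 0.070, edgeR adjusted p = 0.0621), and it was called on library size alone (-0.37), in DESeq2 and without DTMB replicate 1 (-0.27, adjusted p = 0.0262). Lpcat3 was 80.0, 79.4, 67.9 and 81.1 CPM with DTMB, all below the vehicle libraries, a change of -0.20 (SE 0.089, edgeR adjusted p = 0.153) that was -0.35 and called on library size alone. For the genes that fell on HFD, DTMB brought no called change: Chka was 29.8, 29.3, 24.8 and 27.9 CPM, a change of -0.06 (SE 0.14) against vehicle, Etnk1 changed by -0.06 (SE 0.084), Pcyt2 by -0.00029 (SE 0.092) and Chkb by 0.16 (SE 0.12).

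Set against normal diet, livers on HFD with DTMB had 1 of the 10 genes higher and 4 lower, where 29.2% of 15597 genes were called, 15.7% higher and 13.5% lower. Pemt was higher (0.31, SE 0.086, edgeR adjusted p = 0.0186). Chka (-1.04), Etnk1 (-0.48), Lpcat3 (-0.42) and Pcyt2 (-0.29) were lower. The call of Pemt was lost without DTMB replicate 4 or normal-diet replicate 1 (edgeR adjusted p of 0.0585 and 0.1104). That of Pcyt2 was lost without normal-diet replicate 1 or 2, HFD vehicle replicate 2 or any one DTMB library (edgeR adjusted p 0.0503 to 0.194). This comparison shares the normal-diet libraries with the HFD diet comparison. Without the acinar libraries, with normal-diet replicate 2 alone in its group, the change was -1.01 for Chka and 0.15 for Pemt. It was -0.34 for Etnk1, -0.44 for Lpcat3 and -0.44 for Pcyt2.

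DTMB on the MCD diet called 0 of the 10 genes in edgeR, where 0.00624% of 16037 genes (1 gene) were called. None had an unadjusted p under 0.05 in edgeR, DESeq2 called 0 and limma-voom called 0, with 5 at an unadjusted p under 0.05. Lpcat3 was 152.3, 171.9 and 176.7 CPM with DTMB beside 105.9 to 179.3 CPM with vehicle, an overlap, with a change of 0.34 (SE 0.16, edgeR adjusted p = 0.919). Pemt was 259.8, 305.2 and 299.4 CPM with DTMB, a change of 0.26 (SE 0.13, edgeR adjusted p = 0.923). Vehicle replicate 4 lay among these Pemt values and the other vehicle libraries lay below them. Pcyt2 was 206.7, 221.4 and 216.2 CPM with DTMB (0.19, SE 0.13), within the vehicle range.

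Against normal diet, livers on MCD with DTMB had Lpcat3 higher (1.03, SE 0.16, edgeR adjusted p = 6.30e-04) and Chka (-1.62, SE 0.56, adjusted p = 0.0446) and Pcyt2 (-0.49, SE 0.13, adjusted p = 0.0114) lower, where 32.6% of 16037 genes were called, 16.2% higher and 16.4% lower. This comparison shares the normal-diet libraries with the MCD diet comparison. Chka was 17.3, 12.5 and 10.8 CPM with DTMB. Normal-diet replicate 4 (13.9 CPM) lay within that range, and without normal-diet replicate 1 the change was -0.77 (edgeR adjusted p = 0.126). The call of Chka was also lost without any one of the DTMB libraries or MCD vehicle replicate 2 or 3 (edgeR adjusted p 0.0514 to 0.137). Pemt (0.33, SE 0.13, edgeR adjusted p = 0.0737) and Pcyt1a (0.32, SE 0.12, adjusted p = 0.0527) lay just outside the threshold. DESeq2 called both, as did the fit without MCD vehicle replicate 4, which also called Cept1 higher (0.27) and Etnk1 lower (-0.34). Pcyt1a was also called without DTMB replicate 1 or normal-diet replicate 3. On library size alone 6 of the 10 were called higher (Pemt, Chkb, Pcyt1a, Cept1, Etnk2 and Lpcat3) and 0 lower, with Chka and Pcyt2 no longer called, where 36.2% of all genes were called higher and 6.84% lower.

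The DTMB effect on MCD less that on HFD was called for 0 of the 10 genes and for 0% of 16541 genes in edgeR. Among the 10, Pcyt1a (0.32, SE 0.13) and Lpcat3 (0.52, SE 0.19) had an unadjusted p under 0.05, with edgeR adjusted p of 0.512 and 0.460. DESeq2 and limma-voom also called 0 of the 10.

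Ratios of enzymes within a library do not depend on the scaling. These pairs were chosen after the levels had been seen, and ratios are of counts per kb of exon, described with no test. Lpcat3 to Pcyt2 was 0.205 to 0.235 in the 4 normal-diet livers of the MCD cohort, 0.481 to 0.656 on MCD and 0.608 to 0.674 on MCD with DTMB. In the HFD cohort it was 0.345 to 0.409 on normal diet, 0.372 to 0.406 on HFD and 0.325 to 0.348 with DTMB. The separation by diet was thus seen in the MCD cohort, where normal diet and MCD did not overlap.

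The balance of the choline and ethanolamine arms, as Pcyt1a to Pcyt2, was 0.0845 to 0.115 on normal diet and 0.160 to 0.236 on MCD with vehicle, again without overlap. In the HFD cohort it was 0.128 to 0.175 on normal diet and 0.168 to 0.209 on HFD, which overlapped. Pemt to Pcyt2 was 1.16 to 1.34 on normal diet and 1.62 to 3.05 on MCD, and 0.994 to 1.13 on normal diet and 1.19 to 1.39 on HFD, with no overlap in either cohort. It was 1.37 to 1.81 on HFD with DTMB, overlapping HFD with vehicle. Among the ethanolamine kinases, Etnk2 to Etnk1 was 9.58 to 12.5 on normal diet and 13.2 to 18.1 on MCD. On HFD it was 5.31 to 8.09 with vehicle and 9.39 to 11.9 with DTMB, which did not overlap. Chpt1 to Cept1 was 0.937 to 1.54 on normal diet and 0.789 to 0.961 on MCD. Chka to Chkb was 0.480 to 3.41 on normal diet, with replicate 1 at the top, and 0.249 to 0.840 on MCD.

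**Figure D3:**
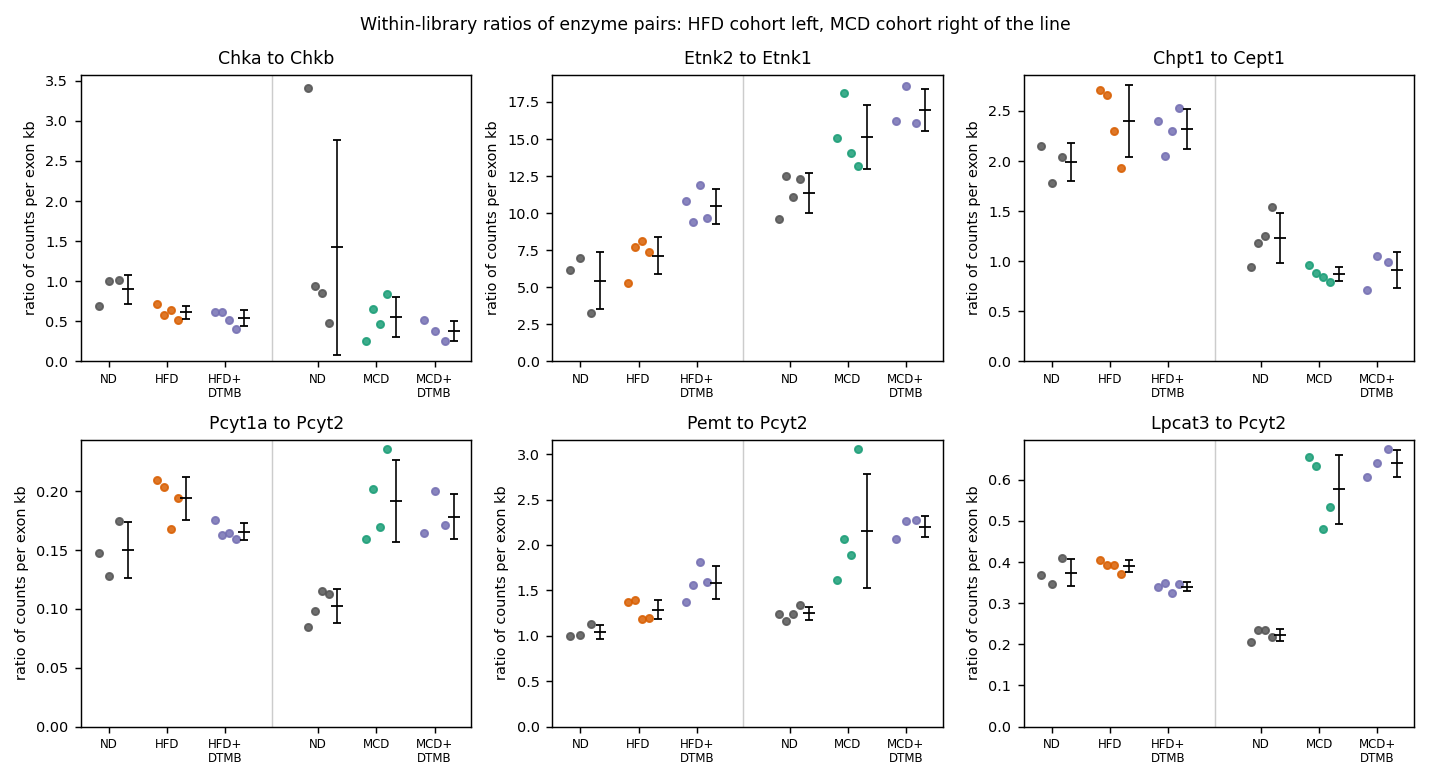
Ratios of enzyme pairs within each library, from counts per kb of exon, on axes starting at 0. Points are libraries, bars the mean ± SD and ND normal diet; the HFD cohort is left of the line and the MCD cohort right. Lpcat3 to Pcyt2 lies at 0.205 to 0.235 in the normal-diet livers of the MCD cohort and at 0.481 or above in every MCD library.

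Other genes of phospholipid and methyl metabolism were counted from 7 lists. Over the lists 49.5% of 95 genes were called on MCD and 37.9% on HFD, beside 41.3% and 27.8% of all genes. Each list count below is to be read beside the all-gene shares. On MCD these were 20.3% higher and 21.0% lower (47.9% and 7.30% on library size alone). On HFD they were 15.2% higher and 12.6% lower (21.5% and 6.6% on library size alone). Beyond Lpcat3, acyltransferases of glycerolipid synthesis and remodelling were the list with the largest share of genes higher on MCD on both scales: 9 of 12 tested rose and 1 fell, with a median of 0.96 (10 and 0 on library size alone). Agpat1 (1.14, SE 0.14), Agpat3 (0.85, SE 0.13) and Agpat4 (1.22, SE 0.27), which acylate lysophosphatidic acid, rose, each called by edgeR (adjusted p 8.98e-05 to 0.00370). On HFD 0 of the 12 rose and 2 fell (1 and 1 on library size alone), among them Lpgat1 (-0.44, SE 0.078). Over all alternative fits the change of Lpgat1 was -0.49 to -0.32. The change of Agpat3 differed between the diets by 1.14 (SE 0.15, edgeR adjusted p = 9.92e-06).

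Genes of phosphatidylcholine transfer, secretion and bile export went the other way on MCD: 0 of 13 rose and 5 fell, with a median of -0.28; on library size alone 4 rose and 2 fell and the median was 0.19, so the direction of this list turns with the scaling. Abcb11, the bile salt export pump, fell by 1.55 on the log2 scale (SE 0.16, edgeR adjusted p = 2.77e-05). Tmem30a, a subunit of phospholipid flippases, fell by 0.75 (SE 0.12), and the flippase Atp8b1 fell by 0.69 (SE 0.15), a call lost on library size alone. On HFD 1 of 13 rose and 4 fell (2 and 2 on library size alone), with Mttp, the lipoprotein assembly protein, at -0.60 (SE 0.099). Over all alternative fits the change of Mttp was -0.65 to -0.43.

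Of 14 methyl donor genes 4 rose and 3 fell on MCD (6 and 3 on library size alone), with a median of -0.06 and shares near those of all genes. Mat2a, which makes S-adenosylmethionine, rose by 2.72 (SE 0.41, edgeR adjusted p = 3.12e-04), and Gamt, which uses it to make creatine, fell by 1.29 (SE 0.13), as did Cbs, the first enzyme of transsulfuration, by 1.43 (SE 0.24). On HFD 2 rose and 8 fell (2 and 6 on library size alone), and Gamt rose by 1.43 (SE 0.14), a difference between the diets of -2.69 (SE 0.19, edgeR adjusted p = 4.57e-09).

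Genes of choline transport and oxidation split on MCD, 4 of 14 higher and 4 lower (9 and 3 on library size alone). The all-gene shares were 20.3% higher and 21.0% lower (47.9% and 7.30%). Aldh7a1, which oxidizes betaine aldehyde, fell by 1.58 (SE 0.13), the transporter Slc44a1 fell by 0.94 (SE 0.12), and the transporter Flvcr1 rose by 1.20 (SE 0.16), with edgeR adjusted p of 5.62e-06 to 1.62e-04. On HFD 3 of the 14 rose and 1 fell (4 and 0 on library size alone), led by Slc44a3 at 1.19 (SE 0.14). Of 12 other head group enzymes, 3 rose and 1 fell on MCD (8 and 0 on library size alone): Ptdss2, which makes phosphatidylserine from phosphatidylethanolamine, rose by 0.78 (SE 0.12), Pgs1 rose by 0.49 (SE 0.11), and the ethanolamine phosphotransferase Selenoi fell by 0.60 (SE 0.10), a call lost on library size alone. On HFD 0 of 12 rose and 2 fell (1 and 1 on library size alone), led by Etnppl, the phosphoethanolamine lyase, at -1.34 (SE 0.18).

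Of 19 phospholipid breakdown genes tested, 5 rose and 4 fell on MCD (12 and 2 on library size alone). Of all genes 20.3% rose and 21.0% fell (47.9% and 7.30%). The hepatic lipase Lipc was at -2.10 (SE 0.17), Abhd3 at -1.29 (SE 0.11) and Gde1 at 1.13 (SE 0.20). On HFD 4 rose and 4 fell (5 and 3 on library size alone), among them Gpcpd1, which splits glycerophosphocholine, at -0.99 (SE 0.18). Of 11 regulators, 1 rose and 3 fell on MCD (4 and 2 on library size alone): Srebf1, which drives fatty acid synthesis genes, fell by 1.81 (SE 0.27), Ppara, the regulator of fatty acid oxidation, rose by 0.63 (SE 0.14), and Nr5a2 fell by 0.44 (SE 0.10), a direction that turned on library size alone. On HFD 4 of the 11 rose and 1 fell (5 and 0 on library size alone), led by E2f1 at 1.38 (SE 0.15).

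DTMB on HFD called 17 of the 95 genes tested over these lists (17.9%), 9 higher and 8 lower, beside 12.7% of all genes, and the counts by direction depended on the scaling. Of 14 methyl donor genes 5 rose and 2 fell (3 and 3 on library size alone), led by Nnmt, which methylates nicotinamide, at 0.76 (SE 0.086, edgeR adjusted p = 0.00410). Of 12 other head group enzymes 0 rose and 1 fell (0 and 4), Phospho1, a phosphatase of phosphocholine and phosphoethanolamine, at -1.26 (SE 0.23). Of 14 choline transport and oxidation genes 0 rose and 2 fell (0 and 4), led by Slc44a3 at -0.57 (SE 0.13). Of 19 breakdown genes 1 rose and 2 fell (0 and 6), led by the phospholipase Pld2 at -0.39 (SE 0.082). Of 13 transfer and export genes 2 rose and 0 fell (0 and 3), led by the lipid transfer protein Stard10 at 0.29 (SE 0.075). Of 11 regulators 1 rose and 1 fell (0 and 2), led by the sterol-sensing receptor Nr1h3 at 0.27 (SE 0.055). All edgeR calls for DTMB on HFD were lost without the acinar libraries, as given above. That took in Nnmt, Phospho1, Slc44a3, Pld2, Stard10 and Nr1h3 and was not particular to them. Slc44a3 was also lost without HFD vehicle replicate 4 or DTMB replicate 4, Pld2 without vehicle replicate 1, and Stard10 without vehicle replicate 1, 2 or 4 or DTMB replicate 2, 3 or 4 (edgeR adjusted p 0.0524 to 0.0990).

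**Figure D4:**
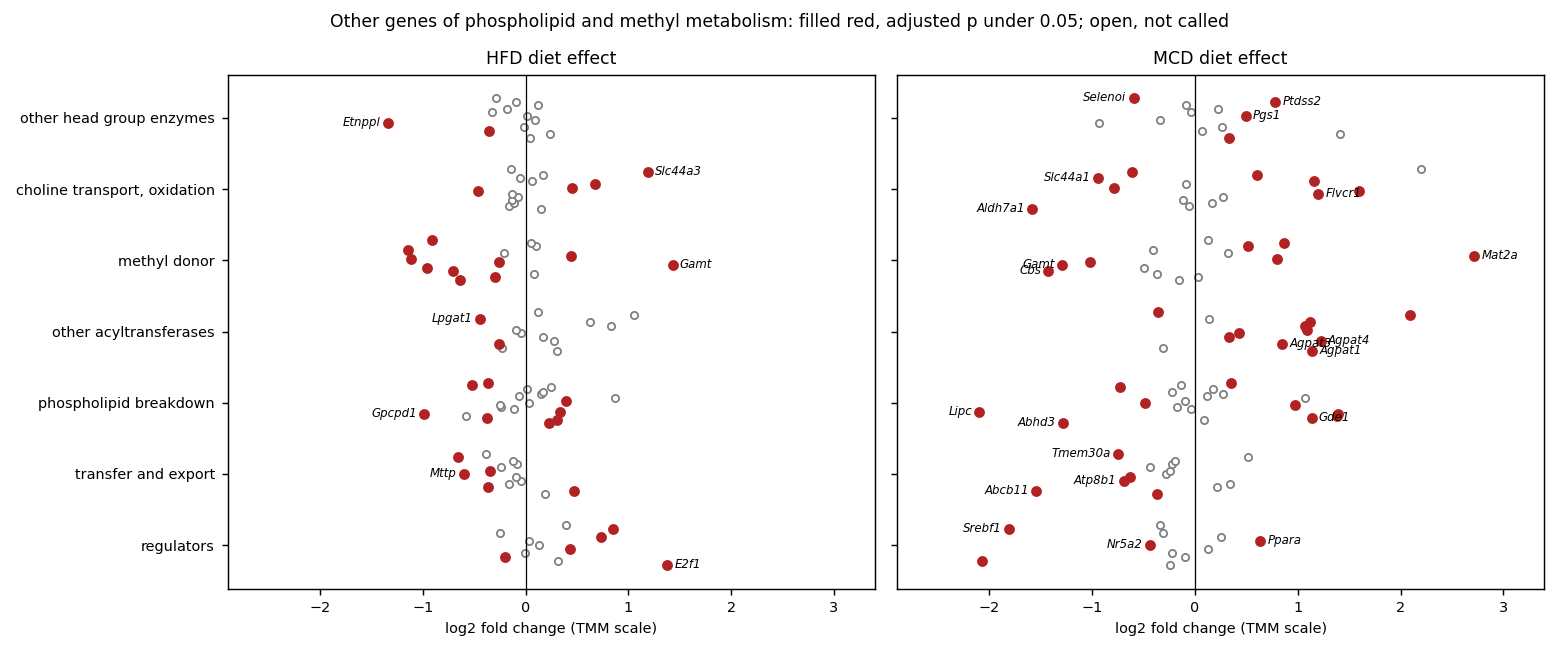
Log2 fold changes on the TMM scale of the other genes of phospholipid and methyl metabolism, by list, for the HFD diet (left) and the MCD diet (right). Each point is a gene, filled where the adjusted p was under 0.05, with names for genes chosen by smallest p; on MCD 9 of the 12 acyltransferases are filled to the right of 0.

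For the genes called on MCD, the transcripts most alike across libraries were found by Pearson correlation of log2 CPM less the cohort mean over the 22 libraries, among 11045 genes. For Lpcat3 they were Sun2 (r = 0.93), Elmod3 (0.92) and Qsox2 (0.91). For Pcyt2 they were Adck5 (r = 0.92), Nelfe (0.92) and Aatf (0.91). Within the 10 enzymes the highest r were those of Etnk1 with Chka (0.78), Cept1 with Pemt (0.67), Etnk2 with Pemt (0.66) and Lpcat3 with Pcyt1a (0.66). These are descriptions; the libraries share diet groups, and depth and scaling are common to both genes of a pair.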

How the data were processed

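Liver RNA was measured by polyA-selected RNA sequencing in 22 libraries. The authors deposited raw read counts per gene as whole numbers without normalization. The mm10 build, HISAT2 2.1.0, StringTie 2.1.3b, Trimmomatic 0.38 and FastQC 0.11.7 are named in the submitters' processing notes; the role and settings of each, and whether counting used strand, are not stated. The 3 groups of a cohort were fitted together, apart from the other cohort, in edgeR 4.0.16 (R 4.3.3): filterByExpr, TMM factors and the quasi-likelihood F test, with p-values adjusted over all genes tested; differences between cohorts came from a fit of all 22 libraries. Levels per kb use the length of the union of exons of GENCODE gene models. DESeq2 1.42.0, limma-voom (limma 3.58.1), other scaling, other filters and leave-one-out fits were alternatives. The edgeR fit alone was tried on simulated counts, with known changes in a small share of genes. For the HFD diet 67 of 15597 genes were changed 1.5-fold. Of genes changed 1.5-fold it called 28.4% for the HFD diet and 46.3% for DTMB on HFD. It called 14.9% for the MCD diet and 5.97% for DTMB on MCD, so changes of that size could go uncalled. In the data a far larger share of genes was called for the diets and for DTMB on HFD. A larger share loosens the cutoff on the unadjusted p, so the simulated rates need not hold for those comparisons. The genes and lists were chosen with earlier results of these data known. All 10 genes are named; of each further list, the 3 of smallest p on MCD and the 1 of smallest p in each other comparison described, where called, and for each of the 10 genes called on MCD its 3 most correlated genes. Same-numbered replicates did not deviate together throughout (r of -0.592 to 0.570 in the HFD cohort, -0.416 to 0.129 in the MCD cohort). In the HFD cohort all pairs of replicate 2 were positive (0.307 to 0.570). Those of replicates 1 and 3 had both signs, and that of replicate 4 was -0.440. The main fit used no pairing, and the replicate number as a block was an alternative. Counting error is small at these depths (643 reads or more per gene and library), and the number of mice limits precision.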

Additional observations from a re-analysis of the deposited data

Results flagged for a closer look

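Within groups of 4 libraries, 7 of 64 sets of values had 1 library far from the rest, by a gap divided by the range above the critical value for a group of this size; chance alone flags about 1 in 20. In the MCD vehicle group these were Pemt (gap share 0.849) and Cept1 (0.879), where replicate 4 was high at 303.9 and 78.1 CPM. In the HFD with DTMB group they were Chkb (0.943) and Chpt1 (0.910), where replicate 4 was high at 44.9 and 521.6 CPM, and Lpcat3 (0.873), where replicate 3 was low at 67.9 CPM. Lpcat3 in the HFD vehicle group (0.900) had replicate 3 high at 103.9 CPM. The ratio of Chka to Chkb on normal diet in the MCD cohort (0.844) had replicate 1 high at 3.41. HFD with DTMB replicate 3 also held acinar transcripts; the other libraries named here were at or below 22.04 CPM for that list.

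The diet change differed between the cohorts in the edgeR fit of all libraries for 2 of the enzymes, Lpcat3 (MCD less HFD 0.95) and Chkb (0.58). Among genes of the other lists it differed for Ptdss2 (0.91), Agpat3 (1.14), Aldh7a1 (-1.70), Abcb11 (-1.99), Lipc (-2.41), Srebf1 (-2.64) and Gamt (-2.69).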

How the results depend on the processing

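Of the values tried for single genes, 2892 kept their side of the threshold. These include uncalled values that changed sign by less than the SE of the main fit. In 101 a call was lost, in 67 one was gained, and in 17 an uncalled value changed sign by at least that SE. Nr5a2 on MCD reversed (0.022 on library size alone). On library size alone the number of the 10 enzymes called was 2 for the HFD diet, 2 for DTMB on HFD, 6 for the MCD diet, 6 for MCD with DTMB against normal diet and 6 for the diet difference, as the scale shifts all genes. In 1 fit of all libraries it was 2 for the HFD diet, 0 for DTMB on HFD, 3 for HFD with DTMB against normal diet and 6 for MCD with DTMB against normal diet. DTMB on HFD gave 3 with DESeq2, 3 with limma-voom, 0 without a count filter, 2 with a stricter one and 2 with only the groups compared. MCD with DTMB against normal diet gave 5 with DESeq2, 7 with limma-voom and 6 with only the groups compared; limma-voom gave 5 for the MCD diet. Leaving out the acinar libraries was an alternative chosen after seeing the data. That fit held fewer libraries, with 1 normal-diet library in the HFD cohort, so no count is given from it here. With the replicate number as a block the diet difference gave 1. The block lost the calls of Chkb in that difference (edgeR adjusted p = 0.0541), of Pcyt2 on HFD (0.104) and on HFD with DTMB against normal diet (0.105), and of Chka on MCD with DTMB against normal diet (0.0790). Leaving out 1 library gave 2 to 5 for the HFD diet, 0 to 2 for DTMB on HFD, 3 to 5 for HFD with DTMB against normal diet, 2 to 3 for the MCD diet, 0 to 0 for DTMB on MCD, 2 to 7 for MCD with DTMB against normal diet, and 1 to 3 for the diet difference. Apart from the scaling and fewer libraries, the cause of these moves was not tested. Groups of 3 or 4 mice limit what could be called; reads did not.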
